A study of Homo sapiens with 4 samples.

Results

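The oxidative phosphorylation (OXPHOS) genes described here are the protein-coding genes of the peak table whose symbols begin with NDUF, UQCR or ATP5, with COX and a digit of 4 to 8, or are SDHA, SDHB, SDHC or SDHD. This choice by name took 71 of the 13948 protein-coding genes that the table names, and 162 of its 68937 peaks. It uses no measured value. The symbols cover nuclear-encoded subunits of complexes I to V, together with 8 complex I assembly factors, the ATP synthase inhibitor ATP5IF1 and, in RefSeq, read-through genes. NDUFA4 and NDUFA4L2, which RefSeq lists as COXFA4 and COXFA4L2, were counted with complex IV.

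The data came from chromatin immunoprecipitation and sequencing (ChIP-seq) of PML, the scaffold protein of the nuclear bodies that carry its name, in MDA-MB-231, an established line of human triple-negative breast cancer cells. The labels list 2 PML ChIP libraries, made with a Bethyl Laboratories antibody to PML, and 2 input libraries from the same line, and they give no treatment or genetic change. Per the labels, the duplicates were merged, so the deposited result is 1 peak list on the hg38 build and no peak has a value for each library or a replicate error. Binding was therefore compared between genes of 1 cell line and not between conditions, and intervals below cover counting error only.

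Oxidative phosphorylation couples electron transport to ATP synthesis in the inner mitochondrial membrane. Complex I (NADH dehydrogenase) and complex II (succinate dehydrogenase) pass electrons to ubiquinone, complex III passes them on to cytochrome c, complex IV reduces oxygen, and complex V (ATP synthase) uses the proton gradient that complexes I, III and IV build. Most subunits are encoded in the nucleus, and the factors NRF1, GABPA (an ETS family protein, also called NRF2), YY1 and ESRRA are known to act at many of their promoters. RONIN (THAP11) is the partner of PML that the title of the study names, and it is known to bind, with HCFC1, promoters of genes for mitochondrial and other housekeeping functions.

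A few promoters that the results turn on are shown first, each as the 180 bases that end just before the transcription start site (TSS) in RefSeq GRCh38.p14. Capitals mark the letters of 4 motifs searched on both strands: GCGCANGCG for NRF1, CCGGAAGT for GABPA, AAGATGGCG for YY1 and ACTACAANT for RONIN and ZNF143, which recognise a like sequence. The NRF1 letters are nearly their own reverse complement, so matches on opposite strands can overlap. The first promoters are those of SDHA, NDUFS7 and NDUFS6, which had the highest scores among peaks named for OXPHOS genes and which all held NRF1 letters. They are SDHA at chr5:218140-218319 on the plus strand, NDUFS7 at chr19:1383727-1383906 on the plus strand and NDUFS6 at chr5:1801227-1801406 on the plus strand. NDUFS7 also held YY1 letters downstream of the TSS, outside the bases shown.
SDHA: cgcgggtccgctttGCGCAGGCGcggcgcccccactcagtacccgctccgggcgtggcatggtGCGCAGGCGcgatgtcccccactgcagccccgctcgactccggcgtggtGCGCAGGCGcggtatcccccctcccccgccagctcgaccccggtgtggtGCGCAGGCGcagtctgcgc
NDUFS7: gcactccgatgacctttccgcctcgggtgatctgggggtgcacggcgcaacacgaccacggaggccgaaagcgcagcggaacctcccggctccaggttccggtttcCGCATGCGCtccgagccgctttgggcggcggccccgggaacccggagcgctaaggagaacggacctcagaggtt
NDUFS6: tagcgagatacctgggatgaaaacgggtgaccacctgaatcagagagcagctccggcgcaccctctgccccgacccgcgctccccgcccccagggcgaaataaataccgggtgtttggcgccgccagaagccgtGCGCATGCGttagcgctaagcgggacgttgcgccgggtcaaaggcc

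The next promoters are the highest scoring of complex V, IV and III, among peaks named for the gene itself. They are ATP5F1E at chr20:59032336-59032515 on the minus strand and COX8A at chr11:63974440-63974619 on the plus strand. Also shown is UQCR11, which shared the highest such score of complex III, at chr19:1605463-1605642 on the minus strand. ATP5F1E held none of the 4 motifs, COX8A held GABPA letters and UQCR11 held both GABPA and NRF1 letters.
ATP5F1E: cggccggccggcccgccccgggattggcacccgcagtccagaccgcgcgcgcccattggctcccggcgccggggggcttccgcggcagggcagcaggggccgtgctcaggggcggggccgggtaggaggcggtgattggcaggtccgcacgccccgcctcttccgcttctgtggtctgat
COX8A: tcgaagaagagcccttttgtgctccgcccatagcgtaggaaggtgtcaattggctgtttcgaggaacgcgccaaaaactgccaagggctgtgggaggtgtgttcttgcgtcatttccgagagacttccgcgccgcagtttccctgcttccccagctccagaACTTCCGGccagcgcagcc
UQCR11: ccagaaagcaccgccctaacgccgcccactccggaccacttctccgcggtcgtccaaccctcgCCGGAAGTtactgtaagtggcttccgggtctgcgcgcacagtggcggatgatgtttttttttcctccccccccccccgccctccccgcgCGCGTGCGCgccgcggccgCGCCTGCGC

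The last promoters hold RONIN letters, which bear on the partner named by the study: NDUFB10 at chr16:1959358-1959537 on the plus strand, which had a peak, and UQCR10 at chr22:29767189-29767368 on the plus strand and ATP5PO at chr21:33915805-33915984 on the minus strand, which had none. The NRF1 match of UQCR10 runs 1 base past the window shown.
NDUFB10: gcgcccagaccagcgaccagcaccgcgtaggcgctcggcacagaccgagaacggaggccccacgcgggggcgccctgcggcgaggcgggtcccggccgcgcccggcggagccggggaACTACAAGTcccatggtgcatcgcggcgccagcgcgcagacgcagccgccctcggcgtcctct
UQCR10: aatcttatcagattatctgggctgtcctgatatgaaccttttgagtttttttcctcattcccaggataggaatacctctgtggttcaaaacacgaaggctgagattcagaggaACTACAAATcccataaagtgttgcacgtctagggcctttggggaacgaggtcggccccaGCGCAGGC
ATP5PO: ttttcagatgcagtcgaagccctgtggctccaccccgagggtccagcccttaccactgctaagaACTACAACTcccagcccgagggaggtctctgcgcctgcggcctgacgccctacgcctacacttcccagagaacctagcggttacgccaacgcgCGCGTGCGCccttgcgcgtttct

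An OXPHOS or other gene was counted as bound at its promoter when at least 1 peak assigned to it had its centre no more than 1000 bp from the TSS. Of the 71 OXPHOS genes, 58 had one (81.7%, exact binomial 95% interval 70.7 to 89.9), against 78.5% of the 13877 other protein-coding genes. The interval of the OXPHOS share held the share of the other genes. Every gene in either count has at least 1 peak somewhere, since the table names only genes nearest to a peak. Among all RefSeq genes, named or not, 58 of 98 OXPHOS genes (59.2%) and 10843 of 19958 other genes (54.3%) had a promoter peak.

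The peaks at OXPHOS promoters had a lower median score than those of other genes, within a shared range. The score is the authors' whole number per peak, on a scale that the sources used here do not give, and it ran from 13 to 5641 over the whole list with a median of 34. The highest promoter peak of an OXPHOS gene had a median score of 55 (17 to 271, middle 50% from 42 to 81.5), against a median of 63 (13 to 899, middle 50% from 40 to 106) for the 10900 other genes with one. Of the 58 OXPHOS genes, 21 (36.2%) scored above the median of the other genes, and 12 (20.7%) scored 100 or more, against 27.4% of the other genes. Above the upper quartile of the other genes lay 12 of 58 (20.7%), near the 24.3% of the other genes themselves. At the low end, 12 of 58 (20.7%) lay below the lower quartile of the other genes, as did 25% of the other genes themselves. The 2 ranges of scores overlapped throughout, and the highest OXPHOS score stood well inside the range of the other genes.

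The table gives each peak to 1 gene, so a promoter shared with a neighbour can be credited to the neighbour alone. Peaks were therefore also counted at the RefSeq TSS whatever gene was named for them, for the 80 OXPHOS genes with an entry in the RefSeq promoter table. On this count 60 of 80 OXPHOS genes (75%, interval 64.1 to 84.0) had a peak centred within 1000 bp, against 60.7% of 15763 other genes. The interval here lay above the share of the other genes, which the first count did not show. The median score of these peaks was 55 for OXPHOS genes, against 64 for the other genes, so the order of the scores was as before.

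**Figure D1:**
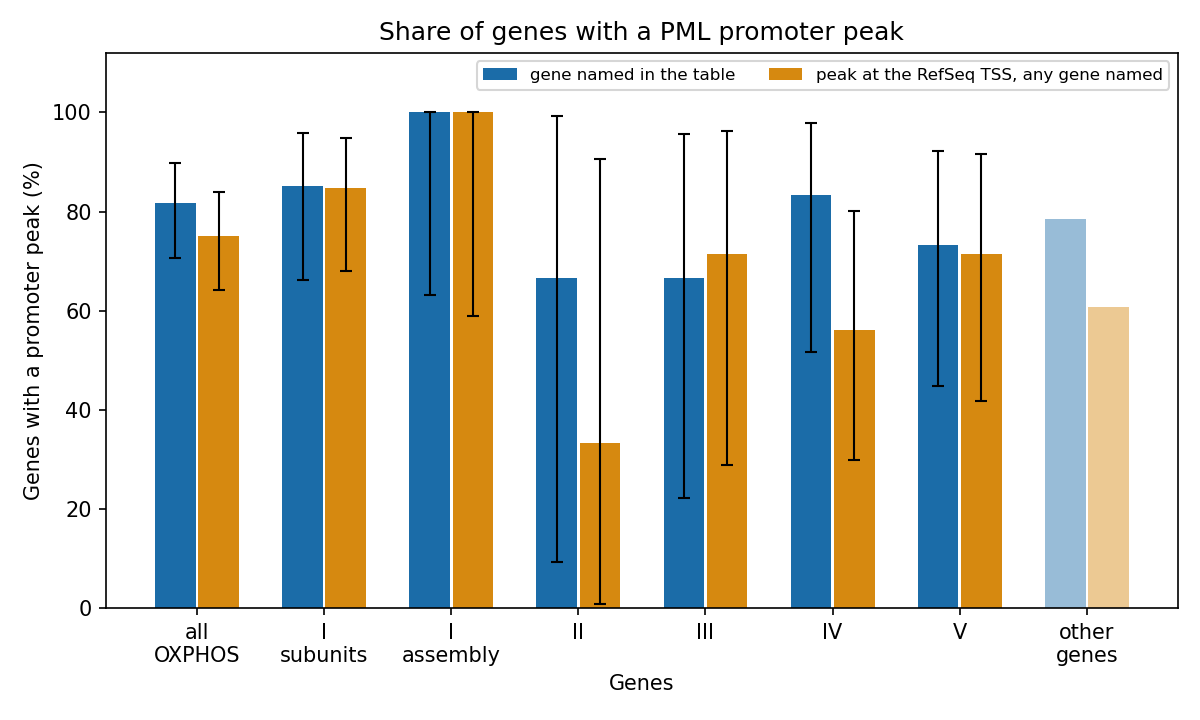
The bars give the percentage of genes with a PML promoter peak for all OXPHOS genes, for each complex and, paler, for other protein-coding genes; blue bars use the gene named in the table and orange bars any peak at the RefSeq TSS, and error bars are exact binomial 95% intervals. All OXPHOS genes stood at 81.7% and 75%, against 78.5% and 60.7% of other genes, and the intervals of the complexes overlapped each other.

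Shares differed little between the complexes relative to their intervals. Of the complex I subunit genes, 23 of 27 (85.2%, 66.3 to 95.8) had a promoter peak, as did 8 of 8 complex I assembly factors (100%, 63.1 to 100). In complex II the count was 2 of 3 (66.7%, 9.43 to 99.2) and in complex III 4 of 6 (66.7%, 22.3 to 95.7). In complex IV it was 10 of 12 (83.3%, 51.6 to 97.9) and in complex V 11 of 15 (73.3%, 44.9 to 92.2). All these intervals overlapped and held the 78.5% of other genes, so the complexes could not be ordered by share. At the RefSeq TSS, the counts were 28 of 33 for complex I, 7 of 7 for its assembly factors and 1 of 3 for complex II. They were 5 of 7 for complex III, 9 of 16 for complex IV and 10 of 14 for complex V. The share of complex I, 84.8% (68.1 to 94.9), lay above the 60.7% of other genes with its whole interval. Complex IV stood at 56.2% (29.9 to 80.2), and its interval and those of the remaining groups held the 60.7%. The intervals of all groups again overlapped.

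Scores varied widely within every complex except complex III. The median promoter score was 61 in complex I, 51.5 in the assembly factors, 36.5 in complex III, 52.5 in complex IV and 47 in complex V. All 4 complex III scores lay from 21 to 42, below the median of 63 of other genes and inside the ranges of complexes I and IV, while the 2 scores of complex II were 54 and 271. Of the 12 OXPHOS genes at 100 or more, 6 were complex I subunits, 2 were assembly factors, 1 was in complex II, 1 in complex IV and 2 in complex V.

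**Figure D2:**
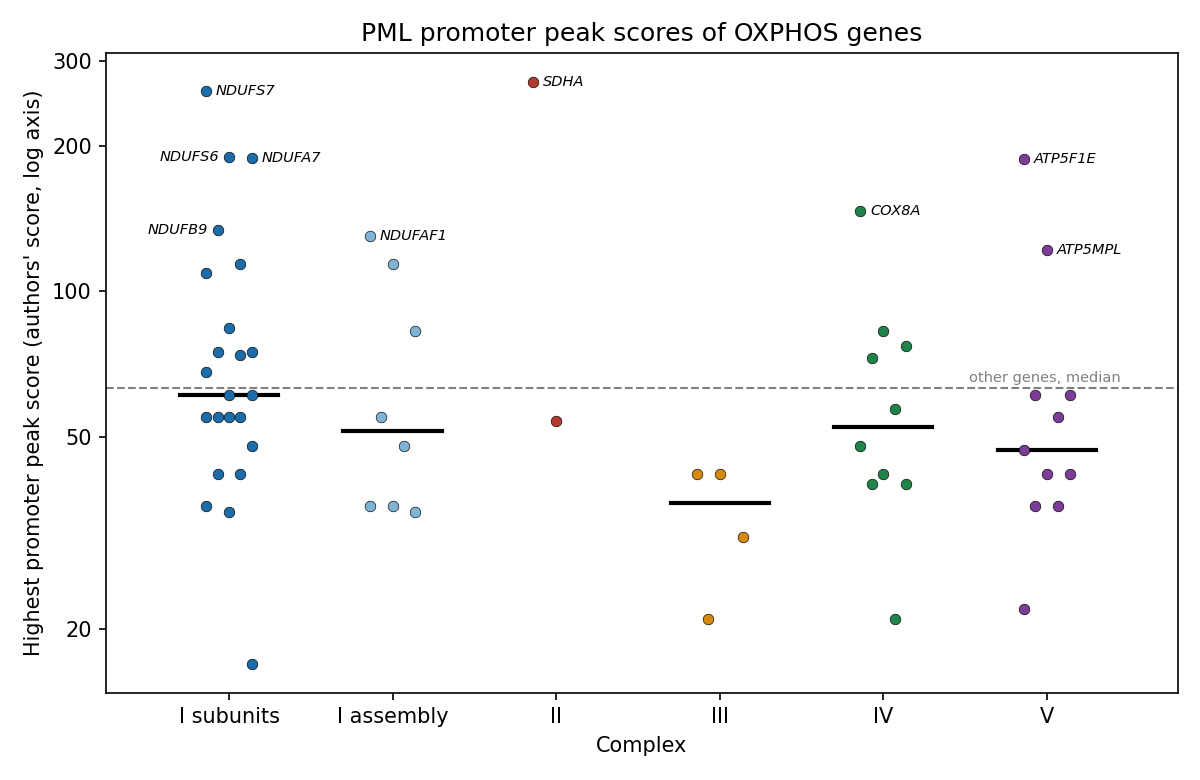
Each point is the highest promoter peak score of 1 OXPHOS gene on a log axis, grouped by complex, with black bars at the medians of groups of more than 2 genes and a dashed line at 63, the median of other genes. SDHA at 271 and NDUFS7 at 260 stand highest, and the 4 complex III genes lie from 21 to 42, all under the dashed line.

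In complex I, the leading promoter among peaks named for the gene itself was that of NDUFS7. NDUFS7 is a core subunit that carries the iron-sulfur cluster nearest to the ubiquinone site. Its peak at chr19:1383334-1384280 scored 260 and was centred 100 bp upstream of the TSS. NDUFS6, a zinc-binding accessory subunit needed for the assembly of the electron input module, followed with 190 at chr5:1800874-1801822. NDUFA7, another accessory subunit, scored 189 at chr19:8320807-8322034, centred within 7 bp of the TSS. The lowest was NDUFS8, a core iron-sulfur subunit and structural neighbour of NDUFS7, with 17 at chr11:68030701-68031094. Subunits that sit side by side in the enzyme thus spanned nearly the whole range of OXPHOS scores.

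The core subunits, which carry the flavin and iron-sulfur centres and line the ubiquinone site, had peaks at all promoters counted, with scores that overlapped those of the accessory ones. All 6 core genes named in the table had a promoter peak, with a median score of 55 (17 to 260), against 17 of 21 accessory genes (81.0%) with a median of 68 (35 to 190). At the RefSeq TSS, whatever gene was named, it was 6 of 6 core genes (interval 54.1 to 100) and 21 of 26 accessory ones (60.6 to 93.4). Both intervals held the 60.7% of other genes. The core gene NDUFS3 had a peak of 341 at its RefSeq TSS that was named for its neighbour. Among the core genes, NDUFV1 and NDUFV2, the subunits of the NADH-oxidising site, scored 55 each, and NDUFS1 scored 36. Further accessory genes at 100 or more, among peaks named for the gene itself, were NDUFB9 with 134 and NDUFA2 with 109.

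The assembly factors help to build complex I and leave it when it is complete. NDUFAF1 scored 130, NDUFAF3 scored 114 and NDUFAF4, a partner of NDUFAF3, scored 83. The peak of NDUFAF3 was 2239 bp wide, the widest promoter peak named for an OXPHOS gene. NDUFAF7, a methyltransferase, was lowest with 35. The range of the assembly factors lay within that of the complex I subunits.

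In complex II, the promoters of the subunit genes differed widely. SDHA, the flavoprotein that oxidises succinate, had the highest score among promoter peaks named for OXPHOS genes, 271, at chr5:217890-219241, centred 245 bp downstream of the TSS and 1351 bp wide. SDHC, a membrane anchor, scored 54 at chr1:161314124-161314965. SDHB, the iron-sulfur subunit, had no promoter peak, its nearest peak being 17454 bp upstream with a score of 21, and SDHD, the other membrane anchor, was named by no peak. SDHA ranked 303 of the 68937 peaks, while SDHB and SDHD, subunit genes of the same enzyme, had no peak at the RefSeq TSS. SDHC was not analysed at the RefSeq TSS.

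Complex III had no high-scoring promoter. UQCRFS1, the Rieske iron-sulfur protein, and UQCR11, a small subunit, scored 42 each. The core proteins UQCRC1 and UQCRC2 scored 31 and 21. UQCRH, the hinge protein, had its nearest peak 17007 bp downstream with a score of 20, and UQCRHL, its intronless relative, had one 8427 bp downstream with a score of 31. UQCR10 and UQCRB were named by no peak, nor was UQCRQ, whose TSS had a peak of 55 named for a neighbour. CYC1, the cytochrome subunit of complex III outside the name rule, had no promoter peak, and CYCS, cytochrome c itself, scored 21.

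Complex IV was led by COX8A, a small subunit found in most tissues, with 147 at chr11:63974499-63975092. COX6A1 followed with 83 and COX7A2 with 77, while COX7C was lowest with 21. COX7A2L, which takes part in joining complexes III and IV, scored 42. COX6C, COX6B1 and COX7B were named by no peak.

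Many complex IV subunits exist as a ubiquitous and a tissue-restricted isoform. The promoter scores of the ubiquitous forms were 147 for COX8A, 83 for COX6A1, 77 for COX7A2 and 57 for NDUFA4, whereas UQCRH, the partner of UQCRHL in complex III, had no promoter peak. Of the 6 restricted genes that the table names, 2 (33.3%) had a promoter peak, against 78.5% of genes outside the OXPHOS set, both with a score of 40: COX4I2, known from lung and low oxygen, and COX6B2, known from testis. The peak of COX6B2 carries the class of a transcript end in the table. The other restricted genes with peaks had none at the promoter: COX7B2, NDUFA4L2, UQCRHL and ATP5MGL, the last of complex V. COX6A2 and COX7A1, the heart and muscle forms, and COX8C were named by no peak. The scored ubiquitous forms all lay above the 2 scored restricted ones. Of the 5 ubiquitous genes that the table names, 4 (80%, interval 28.4 to 99.5) had a promoter peak, and the interval of the restricted share was 4.33 to 77.7. At the RefSeq TSS, the ubiquitous genes had a peak in 4 of 9 cases (44.4%, 13.7 to 78.8). The restricted ones had one in 1 of 5 (20%, 0.505 to 71.6). Both shares were below the 60.7% of genes outside the OXPHOS set, but both intervals held it. COX7A2 has no peak on that count because its RefSeq TSS is another start, and COX4I1, COX6B1, COX7B and ATP5MG were named nowhere.

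Complex V was led by ATP5F1E, the epsilon subunit of the central stalk, with 188 at chr20:59031807-59032811, centred 26 bp from the TSS. Among peaks named for the gene itself, ATP5MPL, a small membrane proteolipid, followed with 122. ATP5F1D, the delta subunit beside epsilon in the stalk, and ATP5MF had 61 each. ATP5F1C, the gamma subunit that forms the shaft of the same stalk, had 55. Of the subunits of the catalytic head, ATP5F1B (beta) had 42 and ATP5F1A (alpha) 36. ATP5MC2, which encodes the c subunit of the rotor ring, was lowest with 22, its relative ATP5MC3 had 42 and the other c subunit gene, ATP5MC1, was named nowhere. The inhibitor ATP5IF1 scored 47. Of the peripheral stalk genes, ATP5PO had its nearest peak 20780 bp downstream with a score of 42, and ATP5PB was named nowhere. ATP5MGL had its nearest peak 2751 bp from the TSS with a score of 14.

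Several promoters without an assigned peak lay under a peak named for a neighbour. Of the 60 peaks at an OXPHOS TSS, 15 were named for another gene. No such share is given here for genes outside the OXPHOS set, so the count is not called particular to OXPHOS genes. It includes the read-through gene NDUFC2-KCTD14, whose peak was named for NDUFC2, itself an OXPHOS gene. The highest was at NDUFS3, the core complex I subunit that the table does not name: a peak of 341 at chr11:47577506-47579617, centred 513 bp upstream and named for KBTBD4, which starts on the opposite strand. This score is above that of SDHA. A peak of 150 at NDUFB2 was named for the noncoding NDUFB2-AS1, one of 130 at ATP5PF, a peripheral stalk subunit, for GABPA, and one of 127 at ATP5ME for MYL5. The GABPA gene, which encodes one of the factors known to act on OXPHOS genes, thus shares its bound promoter with an OXPHOS gene on the opposite strand.

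The remaining neighbour peaks were lower. NDUFA3 had a peak of 113 named for OSCAR. The peak at COX4I1, the ubiquitous partner of COX4I2, scored 75 and was named for EMC8, and that at NDUFC1 scored 75 and was named for NAA15. UQCRQ had one of 55 (GDF9), NDUFB1 one of 53 (CPSF2), NDUFB3 one of 42 (FAM126B), NDUFC2-KCTD14 one of 42 (NDUFC2), ATP5PD one of 31 (KCTD2), NDUFA1 one of 26 (RNF113A) and NDUFA9 one of 15 (AKAP3). Of the 27 OXPHOS genes that no peak names, 8 had a peak at the RefSeq TSS and 14 had none. Those 14 included NDUFA5, NDUFA12, NDUFA13, NDUFB6 and NDUFB8 of complex I, and NDUFB5, COX6C, COX7A1, UQCRB and ATP5MF-PTCD1 were not analysed at the RefSeq TSS here. ATP5F1A differs, since its peak of 36 was at the TSS used by the table, while the RefSeq TSS is a separate start with a peak of 21 named for HAUS1.

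OXPHOS genes often start beside a gene on the opposite strand. A protein-coding TSS on the opposite strand lay within 1000 bp for 25 of 80 OXPHOS genes (31.2%), against 12.4% of the other genes. Only protein-coding genes with an entry in the RefSeq promoter table were searched as partners, so noncoding and other neighbours were missed. NDUFB2, whose TSS peak was named for the noncoding NDUFB2-AS1, was counted as having no partner. Among genes with such a partner, 20 of 25 OXPHOS genes (80.0%) and 81.9% of the other genes had a peak at the TSS. Among genes without one, it was 40 of 55 OXPHOS genes (72.7%) and 57.7% of the other genes. The part of head-to-head promoters in the overall difference of the TSS count was not tested.

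OXPHOS promoter peaks sat close to the TSS and were narrow. Of 59 peaks within 1000 bp, 51 (86.4%) were centred within 250 bp, against 62.3% of the 12047 such peaks of other genes. Most, 40 of 59 (67.8%), were centred downstream of the TSS, as were 69.8% for other genes. The median width was 637 bp (260 to 2239), against 764 bp for other genes, and 9 of 59 (15.3%) were 1000 bp wide or more, against 33.3%. Wider peaks had higher scores across the 58 OXPHOS genes (Pearson r = 0.47, Spearman rho = 0.55), as across the 10900 other genes (r = 0.53, rho = 0.64). These are descriptions across genes of 1 list, where both measures depend on the same reads.

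**Figure D3:**
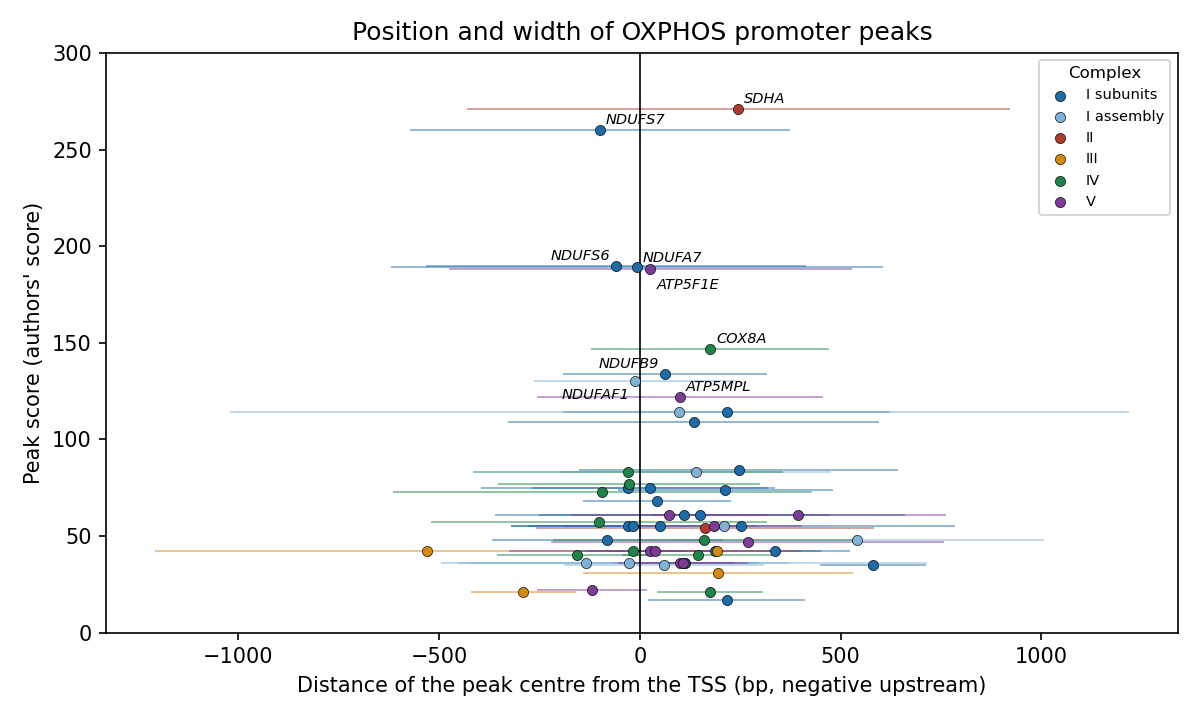
Each point is 1 OXPHOS promoter peak, placed by the distance of its centre from the TSS in bp and by the authors' score, with a line as long as the peak is wide and a colour for the complex. Of the 59 peaks, 51 are centred within 250 bp of the TSS, and the farthest centres are UQCR11 at 530 bp upstream and NDUFB11 at 580 bp downstream.

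Few OXPHOS peaks lay near the limit of 1000 bp used to define a promoter peak. The farthest inside were those of NDUFB11, 580 bp from the TSS with a score of 35, and NDUFAF6, 540 bp from it with 48. Outside it lay further peaks of COX6B2 at 1052 bp with a score of 62 and NDUFB10 at 1169 bp upstream with 26, each beside a promoter peak of the same gene. Among genes with no promoter peak, the nearest were those of NDUFA4L2 at 1590 bp with a score of 68 and NDUFB2 at 1873 bp upstream with 15.

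Peaks far from a TSS were fewer and weaker for OXPHOS genes. Of the 162 peaks, 62 (38.3%) lay over 10000 bp from a TSS, against 52.9% of the peaks of other genes, and their median score was 26.5 (13 to 95), against 31. Most OXPHOS genes had few peaks, with a median of 1 per gene, against 2. Of the 71, 36 (50.7%) had 1 peak, against 42.2% of other genes. NDUFB9 had 11 peaks, NDUFS6 had 10, COX4I2 had 9, COX7B2 had 7 and NDUFAF8 had 6. The highest distal scores belonged to NDUFS6 with 95 at 25277 bp, NDUFB9 with 81 at 14194 bp, COX7B2 with 68 at both 104206 and 127369 bp, and NDUFS6 with 59 at 23196 bp, all downstream. Both COX7B2 peaks lay in introns.

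Most distal peaks of 1 tissue-restricted gene lay in retroviral repeats. All 7 peaks of COX7B2, a testis form of a complex IV subunit, carried a repeat name, 6 of them of the LTR class and 4 of them LTR12C, a long terminal repeat of an endogenous retrovirus. Over all OXPHOS genes, LTR12C was named at 6 of 62 distal peaks (9.68%), the other 2 being at ATP5PF and ATP5PO, against 2.02% for other genes; that of NDUFB10 lay 1169 bp upstream of the TSS. Most of this share thus came from 1 gene. Repeats of any kind were named at 22 of 62 distal OXPHOS peaks (35.5%), close to the 34.1% of other genes, and at 0 of 59 promoter peaks, against 0.722%.

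NRF1 letters were common in OXPHOS promoters, with and without a PML peak. In the 300 bases from 250 upstream to 50 downstream of the TSS, 24 of 80 OXPHOS genes (30.0%) held them, against 10.9% of the promoters of 15763 other genes. The share was 19 of 60 (31.7%) at OXPHOS promoters with a peak, against 14.9% at other promoters with a peak, and 5 of 20 (25%) at OXPHOS promoters without one, against 4.78%. By complex, the letters stood in 9 of 33 promoters of complex I, 2 of 3 of complex II, 4 of 7 of complex III, 2 of 16 of complex IV and 6 of 14 of complex V. Complex III, with low scores, had one of the higher shares of NRF1 letters. Among genes with high scores, SDHA, NDUFS7 and NDUFS6 held the letters, while ATP5F1E and COX8A did not. The relation of the letters to the scores was not tested.

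The SDHA promoter shown above held 4 matches of the same letters, beginning 166, 117, 68 and 19 bases upstream of the TSS and so spaced 49 bases apart. All of them lay under the SDHA peak, whose span takes in the whole stretch printed. NDUFS7 held 1 match beginning 74 bases upstream, near the peak centre at 100 bp upstream, and NDUFS6 held 1 beginning 46 bases upstream, near its peak centre at 59 bp upstream. SDHD held NRF1 and GABPA letters and had no peak at the RefSeq TSS.

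The other motifs were also more frequent than at other promoters, on small counts. GABPA letters stood in 10 of 80 OXPHOS promoters (12.5%), against 6.16%, YY1 letters in 8 (10.0%), against 2.7%, and RONIN letters in 4 (5.0%), against 1.93%. Any of the 4 motifs was held by 38 of 80 (47.5%), against 19.4%. Of the 4 promoters with RONIN letters, NDUFB10, with a score of 55, and COX7C, with 21, had a peak, and UQCR10 and ATP5PO had none. RONIN letters were thus found at 2 of 60 OXPHOS promoters with a peak and 2 of 20 without. At other promoters they stood in 2.49% with a peak and 1.07% without. Counts of 2 OXPHOS genes are too small to compare these shares. A match describes letters only. The median GC content was 60.8% in OXPHOS promoters, against 62.7% in the others. The ratio of observed to expected CpG, which bears on the NRF1 and GABPA letters since both hold CpG, had a median of 0.843, against 0.763, and at promoters without a peak of 0.78, against 0.357. The part of CpG content in the motif shares was not tested.

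**Figure D4:**
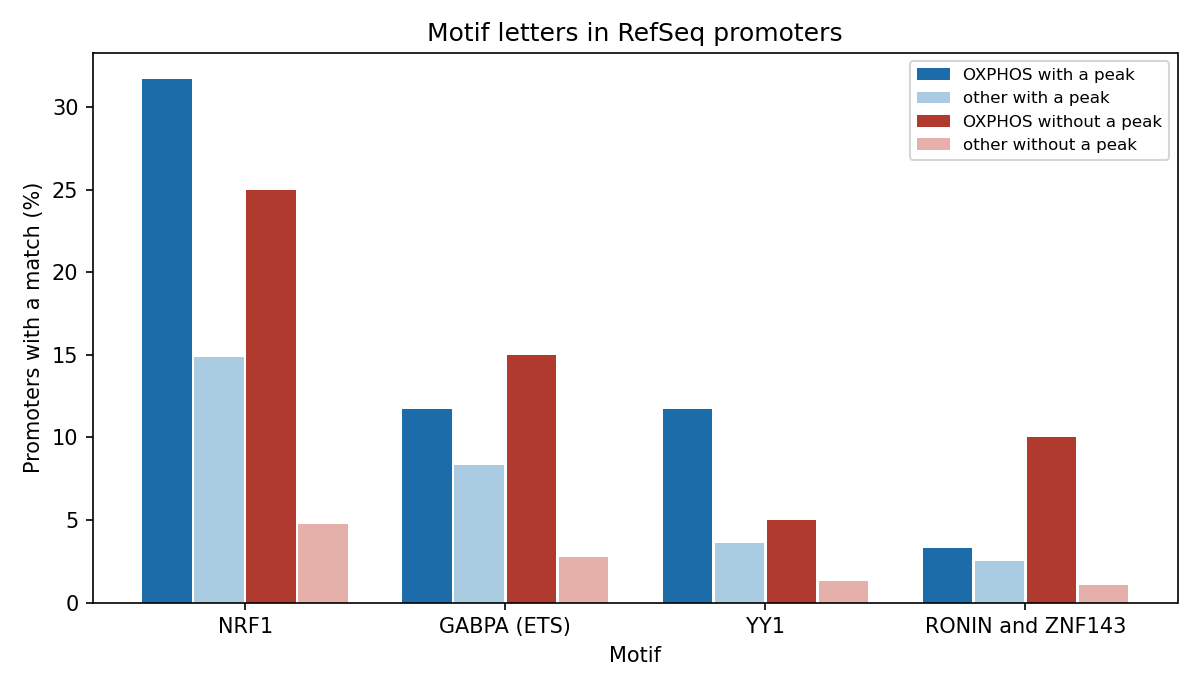
Bars give the percentage of RefSeq promoters with at least 1 match to the letters of each motif, for OXPHOS and other genes with a PML peak at the TSS (blue, pale blue) and without one (red, pale red). NRF1 letters stood in 31.7% of OXPHOS promoters with a peak, against 14.9% of others with a peak, and in 25% of those without, against 4.78%.

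The highest OXPHOS scores lay in regions with many other peaks. Within 500 kb of the TSS, NDUFS6 had 168 peaks that were over 10000 bp from any TSS and SDHA had 136, both near the start of the short arm of chromosome 5, COX8A had 62, NDUFA7 50, ATP5F1E 49 and NDUFS7 40, against a median of 10 over OXPHOS genes and 9 over other genes. The 10 OXPHOS genes with a score of 100 or more and an entry in the promoter table had a median of 49.5 such peaks (1 to 168), and the 37 with lower scores a median of 10 (0 to 58). Across these 47 genes the score and the number of surrounding peaks had r = 0.68 and rho = 0.46. For the 45 genes without NDUFS6 and SDHA, r was 0.51 and rho 0.39. For 9567 other genes r was 0.34 and rho 0.39, with any peak at the RefSeq TSS counted, whatever gene was named. The OXPHOS values used only peaks named for the gene itself, so the measures are not alike. NDUFAF3 and NDUFA2 went against the pattern, with scores of 114 and 109 among 1 and 4 such peaks. The part of this local density in the scores was not tested.

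**Figure D5:**
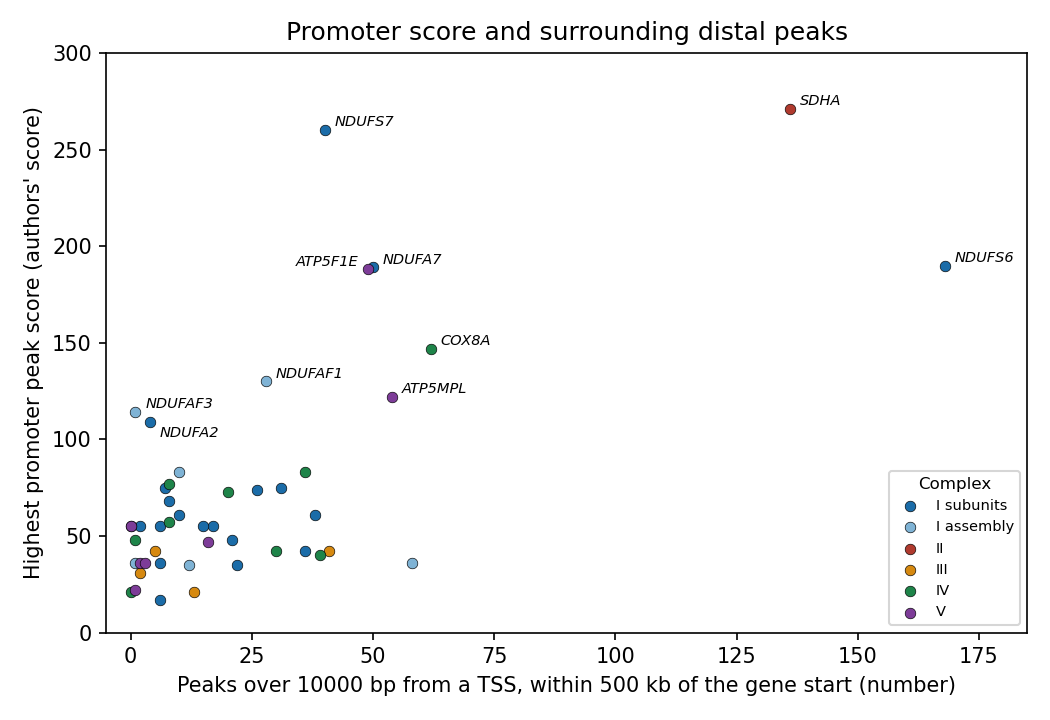
Each point is 1 of 47 OXPHOS genes with a promoter peak and a RefSeq promoter entry, placed by the number of distal peaks within 500 kb of its start and by its promoter score, with colours for the complex. NDUFS6 with 168 and SDHA with 136 surrounding peaks stand far to the right, while NDUFAF3 and NDUFA2 score over 100 with at most 4.

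Most genes named in the table that build the complexes or act in their transcription also had a promoter peak. Of 45 further assembly genes listed, 28 were named in the table, and 25 of these (89.3%) had a promoter peak. The share was 81.7% for OXPHOS genes and 78.5% for genes outside the OXPHOS set. At the RefSeq TSS, 31 of 39 assembly genes had a peak, against 60.7% of genes outside the OXPHOS set. Counts below are of named genes unless the RefSeq TSS is given. The lists held 10 genes for complex I, 4 for II, 6 for III, 21 for IV, 4 for V and 12 for transcription. Complex IV assembly genes had one in 14 of 15 cases with a median score of 98, led, among peaks named for the gene itself, by the copper chaperones SCO2 with 165 and SCO1 with 147 and by COA7 with 155, whereas the complex IV subunits had a median of 52.5. At the RefSeq TSS it was 16 of 19, and the highest peak, 174, lay at SURF1 and was named for another gene. Complex I assembly genes outside the NDUFAF names had one in 5 of 5 cases, led by ECSIT with 90, FOXRED1 with 75 and TIMMDC1 with 74. For complex III both named genes had one, UQCC1 with 139 and TTC19 with 83, and for complex V all 3 did, ATPAF1 with 181, TMEM70 with 75 and DMAC2L with 68. For complex II it was 1 of 3, SDHAF1 with 60, but at the RefSeq TSS, whatever gene was named, it was 3 of 4, with a peak of 164 at SDHAF2 and one of 98 at SDHAF3. Genes of the transcription of OXPHOS had one in 9 of 10 cases with a median of 121, led, among peaks named for the gene itself, by NRF1 with 165, ESRRA with 162 and PPARGC1B, a coactivator, with 137; TFB1M had none. At the RefSeq TSS it was 9 of 11, with a peak of 166 at TFB2M that was named for another gene.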

How the data were processed

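PML ChIP-seq and input libraries of MDA-MB-231 cells were processed by the submitters into 1 merged, annotated peak table. Per the submitters' processing notes, the tools included HOMER 4.11.1, MACS2 2.1.1.20160309, BWA 0.7.12, Trimmomatic 0.36 and Picard 2.0.1, on hg38. Their settings and the peak threshold are not given in the sources used here. Each peak score is the authors' deposited whole number on an unstated scale, and it served only to describe and rank peaks within this list. Positions and distances to the TSS are in bp, per the file headers. Read depth is unknown, so enrichment over input was not recomputed.

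The highest score per gene was taken among peaks centred within 1000 bp of a TSS. Shares have exact Clopper-Pearson 95% intervals, and no test was made, since genes of 1 list are not replicates. Promoter sequences and TSS positions came from RefSeq GRCh38.p14, which held 80 of the 98 OXPHOS genes and 15843 protein-coding genes in all. The TSS implied by a peak and its distance equalled the RefSeq TSS within 2 bp for 39 of 47 OXPHOS genes and 6074 of 8870 others. Named genes were, per complex, the 3 highest and the lowest promoter scores, genes with no promoter peak or no peak, all of complex II, the isoform pairs, the 5 genes with most peaks, the 5 highest distal peaks, and the 3 highest genes of each pathway list. Further genes named (core and other subunits, neighbours, the promoters printed) were chosen after their values were seen. The members, lists and motifs were chosen with earlier results of these data known. Counting was tested on simulated data. Python 3.11.15, pandas 2.3.3, numpy 2.4.6, scipy 1.17.1 and matplotlib 3.10.9 were used. The alternatives tried are given in the closing section. The values of 1 gene are not reported here individually.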

Additional observations from a re-analysis of the deposited data

How the results depend on the processing

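Of 76 values recomputed under other settings, 62 moved by less than their counting interval and 14 moved by more. With the table's own promoter class in place of the distance, the share with a promoter peak was 59.2% for OXPHOS genes, 59.3% for complex I and 50% for complex IV, and OXPHOS genes exceeded other genes by 13 percentage points, against 3.14 in the report. With the 5000 highest-scoring peaks alone, the share was 16.9% for OXPHOS genes, 22.2% for complex I, 25% for its assembly factors, 0.0% for complex III, 8.33% for complex IV and 13.3% for complex V, and the median score of the genes left was 140. The difference from other genes was then -6.48 points, the one setting in which OXPHOS genes stood below them. Fewer peaks are counted by construction. Without tissue-restricted isoforms complex IV stood at 100%, which is 8 of 8 genes that the table names. Genes that no peak names, such as COX6B1, COX6C and COX7B, are outside that count. With all RefSeq genes in the denominator OXPHOS genes stood at 59.2%. With peaks at the RefSeq TSS, an alternative chosen after seeing the data, the difference was 14.3 points. Over the remaining settings it lay from 0.36 (window of 5000 bp) to 10.4 points (higher-scoring part of the list). Counting NDUFA4 and NDUFA4L2 by symbol with complex I, also chosen after seeing the data, moved no share beyond its interval. No paired analysis was possible because the duplicates were merged into 1 list, and for the same reason no replicate could be left out. The unknown depth limits genes without a peak: a weaker signal there may lie under the peak threshold.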

Other observations

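The name rule also matched 9 peaks of 4 genes that are not protein-coding. NDUFB2-AS1, a noncoding RNA beside NDUFB2, had a promoter peak of 150 at chr7:140696520-140698128, the peak also counted above at the TSS of NDUFB2, and another of 42 at 70456 bp upstream. NDUFAF4P1, a pseudogene of an assembly factor, had a peak of 21 centred 74 bp from its TSS. NDUFA6-DT had a peak of 27 at 3921 bp. UQCRBP1, a pseudogene on the X chromosome, had 5 peaks scoring from 15 to 59, all over 10000 bp upstream of it.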
